A study of Mus musculus with 8 samples.

Results

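The genes described here are 8 serpins of mouse liver: Serpina6, Serpina7, Serpina3n, Serpinb1a, Serpina12, Serpina11, Serpina10 and Serpine2. They were taken by name. Every non-control probe that the array's gene name or accession ties to 1 of them was used, which gave 9 probes of 41174 on the array, 2 of them for Serpina10. All 8 genes and all 9 probes passed the filter on dim probes, which 33330 probes in all passed. Each of the 9 was well above background in all 16 RNA pools, and none was saturated. The group had been put together as liver serpins outside the clotting cascade. From what is known of them, Serpina10 and Serpine2 do act on clotting proteases, so that name fits the other 6 only.

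Serpins are a family of proteins that share 1 fold. An inhibitory serpin offers a flexible loop as bait, the protease cuts it, and the serpin then snaps shut and traps the protease for good. Some members have lost that function and use the same fold to carry hormones. Hepatocytes secrete many clade A serpins into plasma, while clade B serpins work mostly inside cells.

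The mice were ICR scid, which lack mature T and B lymphocytes, aged 8 weeks, and their liver RNA was measured on 8 two-colour arrays. Adeno-Cux2 names an adenovirus that carries the transcription factor Cux2, with Adeno-CMV as its control virus. The groups were Adeno-Cux2 and Adeno-CMV males 3 days after treatment, Adeno-Cux2 and Adeno-CMV males after 5 days, Adeno-Cux2 and Adeno-CMV females after 5 days, and untreated males and untreated females. All treated mice carried a virus, and the virus dose and the promoter that drives Cux2 are not given in the sources used here. Each array set 2 pools of 3 to 7 mice against each other, with a pair of arrays, other pools and exchanged dyes for every one of the 4 comparisons. Values are therefore n = 2 pools a group. The error after ± is the standard error (SE) of the fitted log2 ratio. The SE is pooled over the 4 comparisons and drawn by limma towards the other probes. A probe with values on all arrays has the same SE in all 4 comparisons, so it is not the spread of the 2 pools beside it. A shift that recurs between replicates goes into the model's dye term, which is also the replicate number, and not into the SE. The SE covers spread between pools and not between mice. A probe was called at an adjusted p under 0.05 in limma, adjusted over all 33330 probes. In these whole-liver pools fewer cells of a type and less RNA per cell cannot be told apart.

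The median spot of an array read 343 to 442 (green dye) or 430 to 512 (red dye), where local backgrounds were 289 to 342.5. Over all kept probes, paired arrays correlated (Pearson r) at 0.890 for day 3 males, 0.865 for day 5 males, 0.681 for day 5 females and 0.596 for the untreated mice. All 9 measured hepatocyte markers were well above background in 16 of 16 pools. Cux2 itself was higher in the Adeno-Cux2 males (0.60 ± 0.09 at day 5, adjusted p = 0.00408, and 0.49 ± 0.09 at day 3, adjusted p = 0.00405). It was lower in the female pools labelled Adeno-Cux2 (-0.61 ± 0.09, adjusted p = 0.00433). Whether its probe reads the virus-borne copy is not stated, so the probe does not check that label. Xist, the X-inactivation RNA of females, had a normalized signal of 570.2 in the Adeno-CMV pool of male day 3 replicate 2. The other 9 male pools lay between 58.6 and 134 and the 6 female pools between 6388 and 17593, while the Y-linked Ddx3y was at 9016 in that pool, within the range of the male pools. The day 3 values of the serpins and the day 3 counts of the gene lists are therefore also given without that array, the list counts by a choice made after seeing the data. Over all genes the share called at day 3 was 23.9% higher and 20.4% lower with it, and 14.2% higher and 10.4% lower without it. Exocrine pancreas markers had a median log2 ratio of 3.04 on untreated replicate 2, 4.15 on female replicate 1 and 2.62 on male day 3 replicate 2, against -0.63 to 0.03 on the other 5 arrays. The part of these signals in the values below was not tested.

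In untreated mice 2 of the 8 genes were higher in males (Serpina12 and Serpine2) and 2 lower (Serpinb1a and Serpina6). Of all probes, 9.78% were called there, 4.71% higher and 5.07% lower. Under Adeno-Cux2, Serpina6, Serpine2 and Serpina10 rose in males at day 5, while Serpina12, Serpinb1a and Serpina11 fell. The background was 16.8% of probes, 12.0% higher and 4.79% lower. In females at day 5 Serpina6 and Serpina7 rose and Serpinb1a and Serpina11 fell, against 17.4% of probes called, 11.2% higher and 6.20% lower. At day 3 Serpina7 and Serpina6 rose in Adeno-Cux2 males, and Serpina12, Serpina11 and Serpina3n fell. In that comparison 42.9% of probes were called, 22.8% higher and 20.1% lower, so a count of 5 in 8 is not far above the share of the whole array. The median log2 ratio of the 8 genes was 0.10 for day 5 males, 0.04 for females, -0.13 for day 3 males and 0.02 for untreated mice, beside medians of 0.01, 0.00, 0.00 and -0.01 over all 22220 genes. Fewer of the 8 genes were called in day 5 males when either of their arrays was left out, and in untreated mice without untreated replicate 1. Calls over all probes became fewer in these fits too, which leave 1 array in the comparison. The 8 genes did not move as a block, since rises and falls stood side by side in every comparison.

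**Figure D1:**
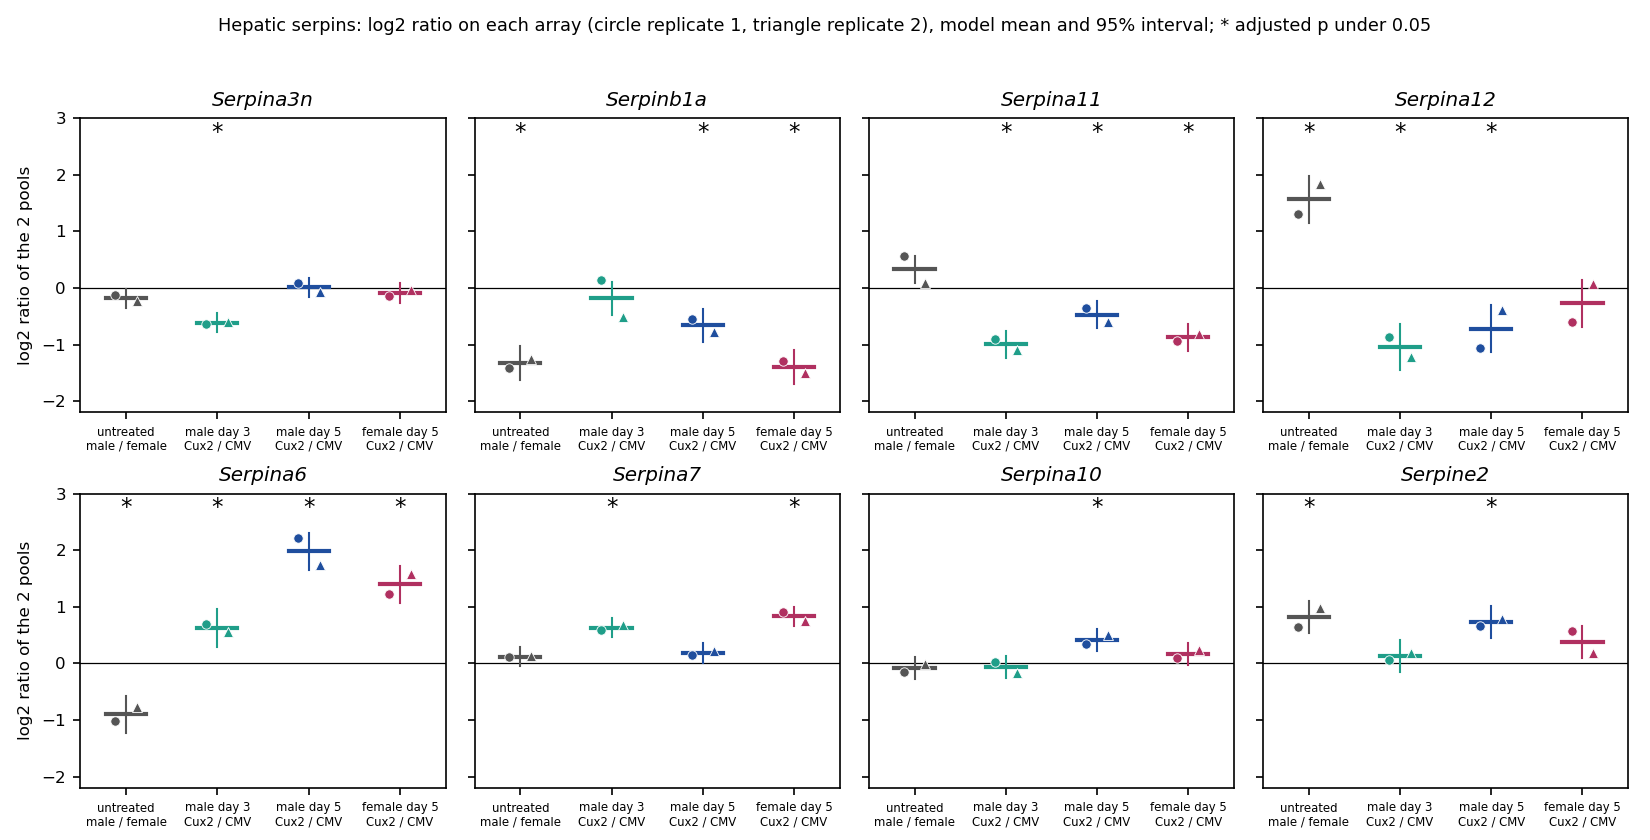
Log2 ratio of the 2 pools for each serpin in each comparison, Adeno-Cux2 over Adeno-CMV or untreated male over untreated female. Circles are replicate 1 and triangles replicate 2, the thick line is the fitted mean, the thin line its 95% interval, and an asterisk marks an adjusted p under 0.05. Serpina6 lay at 1.98 in males at day 5 and at -0.90 in the untreated comparison, and Serpina11 lay below 0 in all 3 treated comparisons.

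The 4 genes that differed by sex in untreated liver were set beside the male response at day 5. Adeno-Cux2 over Adeno-CMV had the sign of untreated female over male for 2 genes and the opposite sign for 2. Serpina6, lower in untreated males than in untreated females, rose, and Serpina12, higher in untreated males, fell. Serpine2, higher in untreated males, rose, and Serpinb1a, lower in untreated males, fell. The Adeno-CMV males were themselves not at the untreated male level. For Serpine2, mean signals were 113 in Adeno-CMV males at day 5, 187 in Adeno-Cux2 males, 202 in untreated males and 115 in untreated females. In the same order they were 493, 300, 314 and 106 for Serpina12, and 1006, 635, 342 and 860 for Serpinb1a. For Serpina6 they were 34199, 134835, 51998 and 97140. These signals across arrays were scaled and not tested. In Adeno-Cux2 females at day 5, Serpina6 and Serpinb1a passed the test, with Serpina6 higher and Serpinb1a lower.

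Serpina6 encodes corticosteroid-binding globulin, the plasma carrier of corticosterone, which binds the hormone and traps no protease. Its probe lies at chr12:104047720-104047779 on mm8, on the minus strand. The normalized signal was 131784 and 137958 in the 2 Adeno-Cux2 pools of males at day 5, against 28321 and 41296 in the Adeno-CMV pools. Both Adeno-Cux2 pools were far above both Adeno-CMV pools. The array log2 ratios were 2.22 and 1.74, with a mean of 1.98 ± 0.14, which is 3.94-fold higher (adjusted p = 1.77e-04). In females at day 5 the Adeno-Cux2 pools had 91120 and 131683, against 39026 and 44224 in the Adeno-CMV pools. The log2 ratios were 1.22 and 1.57 there, with a mean of 1.40 ± 0.14 (2.64-fold higher, adjusted p = 0.00107). Males at day 3 showed the smallest rise, with 58298 and 55859 in Adeno-Cux2 pools against 36175 and 37859 in Adeno-CMV pools. That made 0.62 ± 0.14 on the log2 scale (0.69 and 0.56, 1.54-fold higher, adjusted p = 0.00992), and 0.71 (adjusted p = 0.0722) without male day 3 replicate 2, so this call rests on both arrays. Without male day 3 replicate 1 it was also lost (adjusted p = 0.134).

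In untreated mice Serpina6 had 53487 and 50551 in males, against 108879 and 86667 in females, so that the sexes did not overlap. The log2 ratios of -1.03 and -0.78 gave -0.90 ± 0.14 (1.87-fold lower in males, adjusted p = 0.0106). Leaving out untreated replicate 1 ended the call, as did skipping background subtraction or taking the ratios of the scanner software, at adjusted p-values up to 0.188. Ordered by mean signal, the pools ran from Adeno-CMV males at day 5 (34199), Adeno-CMV males at day 3 (37008) and Adeno-CMV females (41544) through untreated males (51998) and Adeno-Cux2 males at day 3 (57065). Untreated females (97140), Adeno-Cux2 females (109540) and Adeno-Cux2 males at day 5 (134835) made up the top of that order. The Adeno-CMV males at day 5 overlapped both the day 3 and the female Adeno-CMV pools, and untreated females overlapped Adeno-Cux2 females. No other neighbours in the order overlapped. Signals set across arrays in this way were scaled between arrays and not tested.

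Other genes of glucocorticoid handling and response were read beside the carrier. Of 10 measured, 8 were lower and none higher in untreated males than in untreated females, with a median log2 ratio of -0.76, where 4.83% of all genes were called higher and 6.04% lower. Mt2 and Mt1, metallothioneins that glucocorticoids induce, were at -2.04 and -1.61, and Fkbp5, a receptor co-chaperone, at -1.26. Under Adeno-Cux2 the same list split. Among day 5 males 1 was higher (Sgk1, a kinase, 0.74) and 2 lower (Tsc22d3, -0.49, and Dusp1, -0.41), with a median of 0.06. In females 2 were higher and 3 lower (median -0.10), among them Mt2 at -1.14, Hsd11b1, which regenerates active glucocorticoid, at -0.91, and Tat, a tyrosine-degrading enzyme, at 0.83. Among day 3 males 3 were higher and 4 lower (median -0.03), with Hsd11b1 at -2.00, and 2 were higher and 3 lower (median -0.29) without male day 3 replicate 2. Over all genes 13.8% were higher and 4.83% lower in males at day 5, and 12.7% and 6.26% in females. At day 3 these shares were 23.9% and 20.4%, or 14.2% and 10.4% without male day 3 replicate 2.

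Serpina7 encodes thyroxine-binding globulin, a carrier of thyroid hormone and likewise no inhibitor, and its gene is X-linked. The probe maps within chrX:134427673-134428327 on mm8, minus strand, a span of 655 bases. In females at day 5 the signal was 6755 and 6165 in Adeno-Cux2 pools, against 3582 and 3684 in Adeno-CMV pools. The log2 ratios of 0.92 and 0.74 averaged 0.83 ± 0.07 (1.78-fold higher, adjusted p = 7.24e-04). Day 3 males had signals of 7529 and 7461 in Adeno-Cux2 pools, against 5028 and 4643 in Adeno-CMV pools, or 0.63 ± 0.07 (0.58 and 0.68, 1.55-fold higher, adjusted p = 5.35e-04). Without male day 3 replicate 2 that ratio was 0.57 (adjusted p = 0.0187). In males at day 5 the pools also did not overlap, at 5994 and 6065 in Adeno-Cux2 against 5440 and 5191 in Adeno-CMV, but the ratio of 0.18 ± 0.07 (0.14 and 0.22) did not pass the test (adjusted p = 0.150). Untreated males had 847 and 877 and untreated females 787 and 798, a ratio of 0.12 ± 0.07 that did not pass (adjusted p = 0.336).

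The signal of Serpina7 stood out across arrays. All 12 virus-treated pools lay between 3582 and 7529, and all 4 untreated pools between 787 and 877. Within the slide that held both the male day 5 and the untreated arrays, the Adeno-CMV males at day 5 had 6.16 times the signal of untreated males, while the median over all probes was 0.975 times. A ratio at least that high was seen for 133 of 33322 probes, or 0.399%. In raw signal, before any correction, Serpina7 read 4237 and 7149 in those Adeno-CMV pools, against 1072 and 722 in the untreated male pools. The order of the 8 kinds of pool was untreated females, untreated males, Adeno-CMV females, Adeno-CMV males at day 3, Adeno-CMV males at day 5, Adeno-Cux2 males at day 5, Adeno-Cux2 females and Adeno-Cux2 males at day 3, and no neighbours overlapped. Of the 9 serpin probes, 3 differed at least 2-fold between Adeno-CMV males at day 5 and untreated males, against 3.60% of all probes. Beside Serpina7 these were Serpinb1a, 2.94 times as high, and the second Serpina10 probe, 2.15 times lower. The virus, its handling and the array differ between these pools and cannot be told apart, and no test was run.

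**Figure D2:**
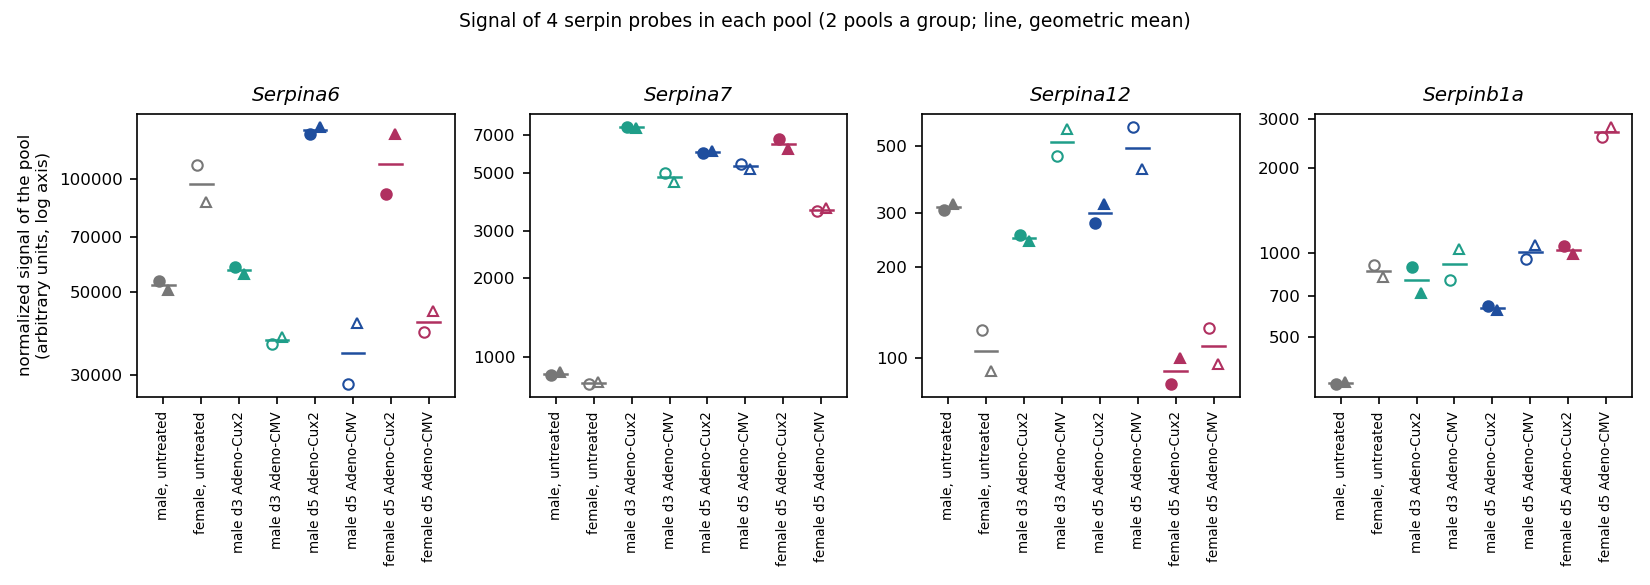
Normalized signal (arbitrary units, log axis) of 4 serpin probes in each of the 16 pools, circle for replicate 1, triangle for replicate 2, line for the geometric mean of 2 pools. Filled symbols are untreated males and Adeno-Cux2 pools, open symbols untreated females and Adeno-CMV pools. Serpina7 lay between 3582 and 7529 in all treated pools and between 787 and 877 in the untreated ones, and Serpina12 lay lower in every female pool than in every male pool.

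The promoter of Serpina7 is shown because its signal set treated from untreated pools so widely. Sequences are from RefSeq on GRCm38.p6, matched for 5 of the 8 genes, and show the 250 bases before the start site, 5′ to 3′. Where 2 start sites were listed 1 is shown. Capitals mark matches to the motifs searched on both strands: TTCNNNGAA, the core bound by STAT5, ATCGAT and ATTGAT, cores bound by the HNF6 and CUX families, GTTAAT, a partial site of HNF1, and TATAAA. These are held by 7.02%, 0.728%, 6.72%, 6.43% and 12.4% of 32851 such windows. The Serpina7 window (chrX:139085220-139085469, minus strand) holds GTTAAT at -74 and TATAAA at -27. Counted from the other listed start site these lie at -57 and -10.
Serpina7: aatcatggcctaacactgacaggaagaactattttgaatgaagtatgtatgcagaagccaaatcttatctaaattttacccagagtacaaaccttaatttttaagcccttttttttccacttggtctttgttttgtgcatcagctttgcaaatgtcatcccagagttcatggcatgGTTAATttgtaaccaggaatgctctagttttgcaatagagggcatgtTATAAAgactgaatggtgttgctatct
The letters alone do not show that a factor binds there.

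Genes of thyroid hormone transport and response were set beside this carrier. Of 10 measured, 8 were lower and none higher in Adeno-Cux2 males at day 3 (median -0.68, with 23.9% of all genes higher and 20.4% lower). Thrsp, a lipogenic gene driven by thyroid hormone, was at -2.43, Dio1, the liver deiodinase, at -2.09, and Me1, malic enzyme, at -1.30. That count was 5 lower and none higher (median -0.77) without male day 3 replicate 2. Among day 5 males 2 were higher and 5 lower (median -0.37), beside 13.8% and 4.83% of all genes. Thrsp was at -1.20 there, and Alb, which also carries thyroid hormone, at 0.71 on arrays of opposite sign (1.58 and -0.16). In females 2 were higher and 3 lower (median -0.22), beside 12.7% and 6.26% of all genes. Dio1 was at -1.41 there and Ttr, transthyretin, the other specific carrier, at 0.63. In untreated mice none was higher and 1 lower in males (median -0.19), beside 4.83% and 6.04% of all genes.

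Serpina3n is a mouse relative of human alpha-1-antichymotrypsin, an acute-phase protein that inhibits leukocyte proteases such as granzyme B. Its probe is at chr12:104814758-104814817 on mm8, plus strand. It fell in Adeno-Cux2 males at day 3, to 15627 and 14888, against 24183 and 22544 in Adeno-CMV pools. The log2 ratios of -0.63 and -0.60 averaged -0.61 ± 0.07 (1.53-fold lower, adjusted p = 6.00e-04), and the value was -0.66 (adjusted p = 0.0125) without male day 3 replicate 2. The Adeno-CMV males at day 3 had the highest mean signal of all 8 kinds of pool (23349) and the Adeno-Cux2 males at day 3 the lowest (15253). At day 5 the pools overlapped in both sexes, with 19563 and 18004 in Adeno-Cux2 males against 18355 and 18968 in Adeno-CMV males. Adeno-Cux2 females had 17104 and 19997, against 18849 and 20518 in Adeno-CMV females. The ratios were 0.01 ± 0.07 in males (adjusted p = 0.960) and -0.09 ± 0.07 in females (adjusted p = 0.477). Untreated males had 19166 and 21504 against 20971 and 25308 in untreated females (-0.18 ± 0.07, adjusted p = 0.162).

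Other acute-phase proteins were read beside Serpina3n. In Adeno-Cux2 males at day 3 Saa3, a serum amyloid A, was at 2.59, Lcn2, lipocalin, at 2.35 and Cp, ceruloplasmin, at 1.12. Of 19 measured, 10 were higher and 3 lower there (median 0.26), beside 23.9% and 20.4% of all genes. That count was 6 higher and 1 lower (median 0.38) without male day 3 replicate 2. Among day 5 males 9 were higher and 1 lower (median 0.44), with Lcn2 at 2.25, where 13.8% of all genes were higher and 4.83% lower. In females 6 were higher and 2 lower (median 0.25), with Orm3, an orosomucoid, at -1.21, where 12.7% of all genes were higher and 6.26% lower. Of 12 cytokine and signalling genes of that response, 6 were higher and none lower in males at day 3 (3 and none without male day 3 replicate 2), 5 and none in males at day 5, and 1 and none in females. The shares over all genes in these 3 comparisons are those given above. Other Serpina3 genes of the cluster went both ways at day 3. Serpina3j was at -1.85, Serpina3k at -1.83, Serpina3c at -1.51, and Serpina3a and Serpina3m at -1.42 each, all called. Serpina3g was at 1.43 and Serpina3f at 0.78, both called, and Serpina3b at -0.08 did not pass. Whether these probes read each other's RNA was not tested.

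Serpinb1a is an inhibitor of neutrophil elastase, cathepsin G and proteinase 3 that works inside cells and is also released by hepatocytes. Its probe is at chr13:32850318-32850377 on mm8, minus strand. In females at day 5 the signal fell to 1058 and 990 in Adeno-Cux2 pools, against 2591 and 2819 in Adeno-CMV pools. The log2 ratios of -1.29 and -1.51 averaged -1.40 ± 0.13 (2.64-fold lower, adjusted p = 7.82e-04). Adeno-Cux2 males at day 5 had 647 and 624, against 947 and 1069 in Adeno-CMV pools, or -0.66 ± 0.13 (-0.55 and -0.78, 1.58-fold lower, adjusted p = 0.0126). That male call was lost when either male day 5 array was left out, at adjusted p-values up to 0.200. The male day 3 arrays went in opposite directions (0.14 and -0.52), and the mean of -0.19 ± 0.13 did not pass (adjusted p = 0.283). Without male day 3 replicate 2 it was 0.10 (adjusted p = 0.681).

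In untreated mice Serpinb1a had 340 and 345 in males, against 903 and 819 in females. The log2 ratios of -1.41 and -1.25 gave -1.33 ± 0.13 (2.51-fold lower in males, adjusted p = 0.00145), a call kept under all 17 alternatives. Among Adeno-CMV pools at day 5 the same order was seen across slides, with males at 0.37 times the female signal. Adeno-Cux2 females (mean 1023) lay beside Adeno-CMV males at day 5 (1006), and those pools overlapped. Adeno-CMV females (2703) were above every other kind of pool and untreated males (342) below every other. Adeno-Cux2 males at day 5 (635) came next to the untreated males without overlap. Adeno-Cux2 males at day 3 (798), untreated females (860), Adeno-CMV males at day 3 (908) and Adeno-CMV males at day 5 overlapped each with its neighbour.

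Proteases were read beside it. Of 14 proteases that these serpins are known to inhibit or that belong to the same systems, 6 were higher and none lower in Adeno-Cux2 males at day 5, 5 higher and 1 lower in females, and 5 higher and 3 lower in males at day 3. Over all genes 13.8% were higher and 4.83% lower in males at day 5, and 12.7% and 6.26% in females. At day 3 the list's 35.7% higher and 21.4% lower lay near the 23.9% and 20.4% of all genes. Medians were 0.19 in males at day 5, 0.36 in females and 0.39 in males at day 3. The last turned to -0.06 without male day 3 replicate 2. The list holds Prss2 and Ctrb1, which are also exocrine pancreas markers and were not called. Prss2 was at 4.18 and -1.45 on the female arrays and at 0.08 and 2.81 on those of males at day 3. Ctrb1 was at 2.39 and -0.32, and at 0.05 and 1.09. The part of pancreas signal in these medians was not tested. Ctsg, cathepsin G, was at 1.80 in males at day 5, 1.83 in females and 2.99 in males at day 3, and Prtn3, proteinase 3, at 1.47 and 1.72 in males and females at day 5. Elane, neutrophil elastase, was at 1.53 in males at day 3. Neutrophil markers moved with them, with 11 of 13 higher and none lower in each of the 3 treated comparisons, also without male day 3 replicate 2. Their medians were 2.05 in males at day 5, 1.31 in females and 1.37 in males at day 3, and per-array medians lay between 1.15 and 2.27, while S100a8, a neutrophil calprotectin subunit, was at 3.30 in males at day 5. The part of these cells in the Serpinb1a values was not tested. Serpinb1c, a close relative, went the same way as Serpinb1a, at -1.16 in females at day 5 (adjusted p = 0.00153) and at -0.66 in untreated males over females (adjusted p = 0.0231), and cross-reading between the 2 was not tested.

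Serpina12 encodes vaspin, an adipokine in humans and rodents that inhibits the protease kallikrein 7. Its probe is at chr12:104429939-104429998 on mm8, minus strand, and is dim, with raw signals of 312 to 964. Untreated males had 306 and 322, against 124 and 90.5 in untreated females. The log2 ratios of 1.30 and 1.83 gave 1.57 ± 0.17 (2.96-fold higher in males, adjusted p = 0.00289). This ratio ran from 0.59 to 2.92 over the alternatives, being smallest without background subtraction, and the call was lost in 2 of 17 (adjusted p up to 0.0693). All 6 female pools lay between 82.3 and 126 and all 10 male pools between 243 and 578. The Adeno-Cux2 pools of males at day 3 had 255 and 243, against 464 and 568 in Adeno-CMV pools, or -1.04 ± 0.17 (-0.86 and -1.22, 2.06-fold lower, adjusted p = 0.00291). Without male day 3 replicate 2 the fitted ratio was -0.55, while the array left, replicate 1, read -0.86. With 1 array left, the dye term of the model is set by the other comparisons, so the smaller size is not due to that array alone. In males at day 5 the Adeno-Cux2 pools had 279 and 323, against 578 and 421 in Adeno-CMV pools. That ratio of -0.72 ± 0.17 (-1.05 and -0.38, 1.64-fold lower, adjusted p = 0.0326) was lost in 7 of 17 alternatives (adjusted p up to 0.455), median centring and the loss of either own array among them. In females the arrays disagreed in sign (-0.61 and 0.07), with a mean of -0.27 ± 0.17 (adjusted p = 0.365).

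Klk7, the known target of vaspin, did not pass the test in any comparison. Since vaspin is an adipokine, adipose and muscle markers were read beside it. None of 9 was called in untreated mice or in males at day 3, 1 was higher in males at day 5 and 4 were lower in females (medians 0.04, 0.03, 0.47 and -1.12). Over all genes 13.8% were higher in males at day 5 and 6.26% lower in females. Their part in the Serpina12 values was not tested.

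Serpina11 is a clade A serpin of liver whose function is little studied. Its probe is at chr12:104383888-104383947 on mm8, minus strand. It fell in all 3 treated comparisons. In males at day 3 the signal was 28973 and 22751 in Adeno-Cux2 pools, against 53928 and 48490 in Adeno-CMV pools, or -0.99 ± 0.10 (-0.90 and -1.09, 1.99-fold lower, adjusted p = 3.01e-04). The call held without male day 3 replicate 2 (adjusted p = 0.00975). In females at day 5 the signal was 21062 and 22711 in Adeno-Cux2 pools, against 40111 and 40088 in Adeno-CMV pools, or -0.87 ± 0.10 (-0.93 and -0.82, 1.83-fold lower, adjusted p = 0.00190). Adeno-Cux2 males at day 5 had 33807 and 31470, against 43055 and 47536 in Adeno-CMV males, or -0.47 ± 0.10 (-0.35 and -0.60, 1.39-fold lower, adjusted p = 0.0196). The male day 5 call ended when either own array was left out, when background was not subtracted and when the scanner software's ratios were used (adjusted p up to 0.292). Untreated males had 48505 and 38526 against 32721 and 36335 in untreated females, and 0.33 ± 0.10 (0.57 and 0.08) did not pass (adjusted p = 0.0906). In no kind of treated liver did an Adeno-Cux2 pool reach its Adeno-CMV pools.

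Serpina11 and Serpina12 are near neighbours on chromosome 12, and both fell in Adeno-Cux2 males at both times, so their promoters are shown together. The Serpina11 window is chr12:103989944-103990193 and the Serpina12 window chr12:104044444-104044693, both minus strand on GRCm38.p6. The first holds TTCCAGGAA, a match to TTCNNNGAA, at -65, and the second none of the 5 motifs. Counted from the other listed start site of Serpina11 the match lies at -51.
Serpina11: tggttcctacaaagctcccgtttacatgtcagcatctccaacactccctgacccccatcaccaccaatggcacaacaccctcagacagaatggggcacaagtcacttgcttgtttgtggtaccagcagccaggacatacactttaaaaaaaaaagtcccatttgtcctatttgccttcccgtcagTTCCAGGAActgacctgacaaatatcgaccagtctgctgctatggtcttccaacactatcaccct
Serpina12: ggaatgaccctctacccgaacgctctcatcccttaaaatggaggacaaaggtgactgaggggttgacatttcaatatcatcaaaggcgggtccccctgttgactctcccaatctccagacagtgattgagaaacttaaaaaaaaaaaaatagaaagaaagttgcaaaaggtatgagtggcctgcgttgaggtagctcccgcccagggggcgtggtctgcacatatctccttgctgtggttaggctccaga
No motif of the 5 was found in the Serpina3n and Serpine2 windows, and Serpina6, Serpina10 and Serpinb1a have no window shown.

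Serpina10 encodes the protein Z-dependent protease inhibitor, which with protein Z blocks clotting factor Xa, and factor XIa without it. Its brighter probe is at chr12:104029294-104029353 and its second at chr12:104016120-104016179 on mm8, both minus strand. In males at day 5 the brighter probe read 15885 and 16071 in Adeno-Cux2 pools, against 12576 and 11376 in Adeno-CMV pools. That is 0.42 ± 0.08 (0.34 and 0.50, 1.34-fold higher, adjusted p = 0.0143). The second gave 0.54 ± 0.07 (0.48 and 0.59, 1.45-fold higher, adjusted p = 0.00274). In females the probes differed in their call, at 0.17 ± 0.08 on the brighter (0.09 and 0.24, adjusted p = 0.227) and 0.41 ± 0.07 on the second (0.44 and 0.37, adjusted p = 0.00970). Neither passed in day 3 males, at -0.07 ± 0.08 (adjusted p = 0.529) and -0.18 ± 0.07 (adjusted p = 0.0829). Leaving out male day 3 replicate 2, the first turned to 0.10 (adjusted p = 0.549) and the second was -0.25 (adjusted p = 0.174). The untreated ratios were -0.08 ± 0.08 and -0.14 ± 0.07 (adjusted p = 0.564 and 0.249). The male day 5 calls were lost when either male day 5 array was left out (adjusted p up to 0.295 and 0.116). The female call of the second probe was lost in 4 of 16 alternatives, either female array left out among them (adjusted p up to 0.169). Both probes read lower in all 12 treated pools than in all 4 untreated pools. The brighter ranged from 11376 to 16071 in treated pools and from 18144 to 20213 in untreated ones. The virus, its handling and the array differ between treated and untreated pools and cannot be told apart. How many of all probes split the pools in this way was not counted, and no test was run.

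Proz, protein Z, the cofactor of Serpina10, fell in Adeno-Cux2 males at day 3 (-1.41, adjusted p = 4.22e-05), where F10, the factor X it acts on, was at -0.62. Of the 4 cofactor and clearance genes, 1 was higher and 3 lower at day 3 (median -0.56), beside 23.9% and 20.4% of all genes, and 1 higher and 2 lower without male day 3 replicate 2. None was called in males at day 5 (all genes 13.8% higher and 4.83% lower), and 1 was higher in females (all genes 12.7%). Vldlr, a lipoprotein receptor, was at 1.27 in males at day 3.

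Serpine2, protease nexin-1, inhibits thrombin, urokinase and plasmin near cell surfaces and comes largely from non-parenchymal cells. The probe maps within chr1:79675925-79678542 on mm8, minus strand, a span of 2618 bases. Its raw signals of 320 to 549 were close to the local background of 289 to 342.5. Adeno-Cux2 males at day 5 had 198 and 177, against 124 and 103 in Adeno-CMV pools, or 0.72 ± 0.12 (0.67 and 0.78, 1.65-fold higher, adjusted p = 0.00685). In untreated mice males had 191 and 214 and females 122 and 108, or 0.81 ± 0.12 (0.64 and 0.99, 1.76-fold higher in males, adjusted p = 0.00874). Both calls were lost without background subtraction, where the ratios shrank to 0.25 and 0.28. The male day 5 call was also lost when either male day 5 array was left out. The untreated call was also lost without untreated replicate 2 and with only the untreated arrays in the fit. In females at day 5 the ratio was 0.38 ± 0.12 (0.58 and 0.18, adjusted p = 0.0743) and in males at day 3 it was 0.13 ± 0.12 (0.06 and 0.19, adjusted p = 0.444), or 0.07 (adjusted p = 0.845) without male day 3 replicate 2. The Adeno-CMV males at day 5 (mean 113), untreated females (115), Adeno-CMV females (121) and Adeno-Cux2 females (157) overlapped at the low end. The untreated males (202) had the highest mean and overlapped the Adeno-Cux2 males at day 5 (187).

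Markers of stellate cells and fibroblasts, which make Serpine2 in many tissues, were higher under Adeno-Cux2, with 12 of 14 higher and none lower in males at day 5, 12 and none in females, and 10 higher and 1 lower in males at day 3. Over all genes 13.8%, 12.7% and 23.9% were higher in these comparisons. The day 3 count was 7 higher and none lower without male day 3 replicate 2. Their medians were 0.76, 0.75 and 1.02, with Col1a1, a collagen chain, at 1.87, 1.71 and 1.89. In untreated mice 3 of 14 were lower in males and none higher (median -0.14), beside 6.04% and 4.83% of all genes. Their part in the Serpine2 values was not tested. Plat, tissue plasminogen activator, which Serpine2 also inhibits, was at 2.81 in males at day 5, 1.95 in females and 3.53 in males at day 3. The targets named above did not rise with it. F2, the thrombin gene, was at -0.60 and Plg, the plasmin gene, at -0.84 in males at day 3, and Plg at -0.33 in females, all called lower. Plau, urokinase, was not called in any comparison.

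Between day 5 and day 3 in males, the response to Adeno-Cux2 differed for 4 of the 8 genes, where 12.1% of all probes were called. Serpina6 rose more at day 5, by 1.35 ± 0.20 (95% interval 0.89 to 1.82, adjusted p = 0.00869). For Serpina10, which did not pass at day 3, the day 5 response was higher by 0.49 ± 0.12 (0.22 to 0.76, adjusted p = 0.0396), and by 0.72 ± 0.10 on its second, further probe (adjusted p = 0.00812). Serpina3n differed by 0.62 ± 0.10 (0.38 to 0.86, adjusted p = 0.0126), its fall being at day 3. For Serpina7 the day 5 response was the smaller, with a difference of -0.45 ± 0.10 (-0.70 to -0.21, adjusted p = 0.0351). Serpina11 (0.52 ± 0.14, adjusted p = 0.0592), Serpine2 (0.60 ± 0.17, 0.0651), Serpinb1a (-0.48 ± 0.18, 0.137) and Serpina12 (0.33 ± 0.25, 0.458) did not pass. The calls did not hold when male day 3 replicate 2 or male day 5 replicate 1 was left out, and most did not without male day 5 replicate 2. Calls over all probes also became fewer in these fits, which leave 1 array at 1 of the 2 days. The second Serpina10 probe passed without male day 3 replicate 2 (0.79, adjusted p = 0.0490). The first Serpina10 probe lost its call in 9 of 17 alternatives, with leaving out either female array, no background subtraction and median centring among them (adjusted p up to 0.278). Without male day 3 replicate 2 the differences were 1.27 for Serpina6, 0.67 for Serpina3n, -0.39 for Serpina7, 0.32 for Serpina10, 0.53 for Serpina11, 0.66 for Serpine2 and -0.76 for Serpinb1a, and that of Serpina12 turned to -0.17. The day 3 and day 5 arrays lay on separate slides and were read by separate software versions, so time and slide cannot be told apart.

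Between females and males at day 5, none of the 8 genes passed in limma, where 0.201% of all probes were called. At an unadjusted p under 0.05 there were 4 of the 8 genes, beside 2408 of all 22220 genes. The smallest adjusted p was that of Serpina7, at 0.0790, for a female response higher by 0.65 ± 0.10 (95% interval 0.40 to 0.89). Serpinb1a was at -0.74 ± 0.18 (-1.16 to -0.32, adjusted p = 0.188), Serpina6 at -0.58 ± 0.20 (-1.04 to -0.12, 0.356) and Serpina11 at -0.40 ± 0.14 (-0.74 to -0.07, 0.388). For the other 4 genes the 95% interval held 0, and it was widest for Serpina12 (-0.14 to 1.03). Sex and slide cannot be told apart in this difference.

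**Figure D3:**
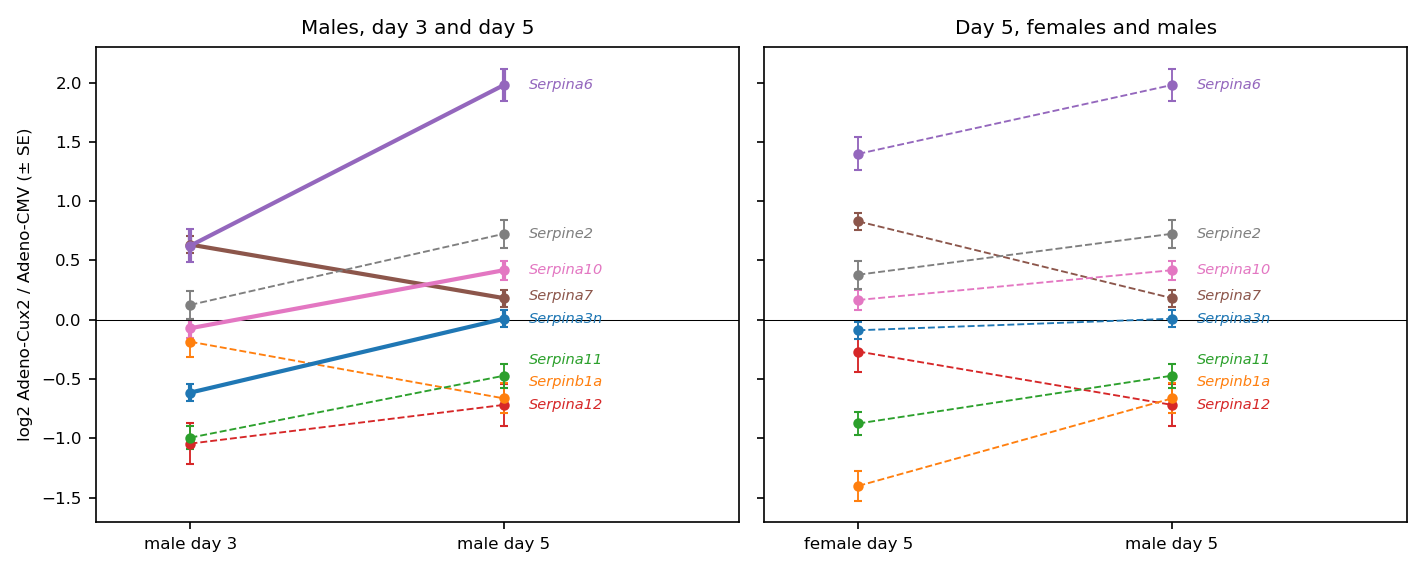
Log2 ratio of Adeno-Cux2 over Adeno-CMV (2 arrays each, ± the SE pooled over comparisons) for the 8 serpins, in males at day 3 and day 5 (left) and at day 5 in females and males (right). Thick solid lines mark genes whose difference between the 2 responses passed the test, 4 on the left and none on the right. Serpina6 ran highest at day 5 in both sexes.

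Of the 8 genes, 5 lie in the serpin cluster of chromosome 12, whose probes span 799 kb on mm8. Serpina10 and Serpina6, at 13.2 and 31.6 kb from its first probe, were the 2 that rose in males at day 5. Serpina11 and Serpina12, at 368 and 414 kb, fell in males at both times, while Serpina9 between them, at 382 kb, was higher in females at day 5 (1.00) and in untreated males (0.90). Serpina3n is the last probe of the cluster. Of 12 other clade A serpins measured, 8 were lower and 2 higher in males at day 3 (median -1.21), beside 20.4% and 23.9% of all genes. That count was 6 lower and 2 higher (median -1.10) without male day 3 replicate 2. There were 4 lower and 2 higher in males at day 5 (median -0.35, all genes 4.83% and 13.8%), and 3 lower and 2 higher in females (median -0.08, all genes 6.26% and 12.7%). In untreated males 1 was lower and 2 higher (median 0.27, all genes 6.04% and 4.83%). Of those 2, Serpina1d had arrays of opposite sign (1.61 and -0.11). The 2 higher ones in treated males were Serpina3g (1.43 at day 3, 1.27 at day 5) and Serpina3f (0.78 and 0.85). Hepatocyte markers were lower for 6 of 9 at day 3 (median -0.33), or 4 of 9 (median -0.40) without male day 3 replicate 2, and their part in the falls of clade A serpins was not tested.

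**Figure D4:**
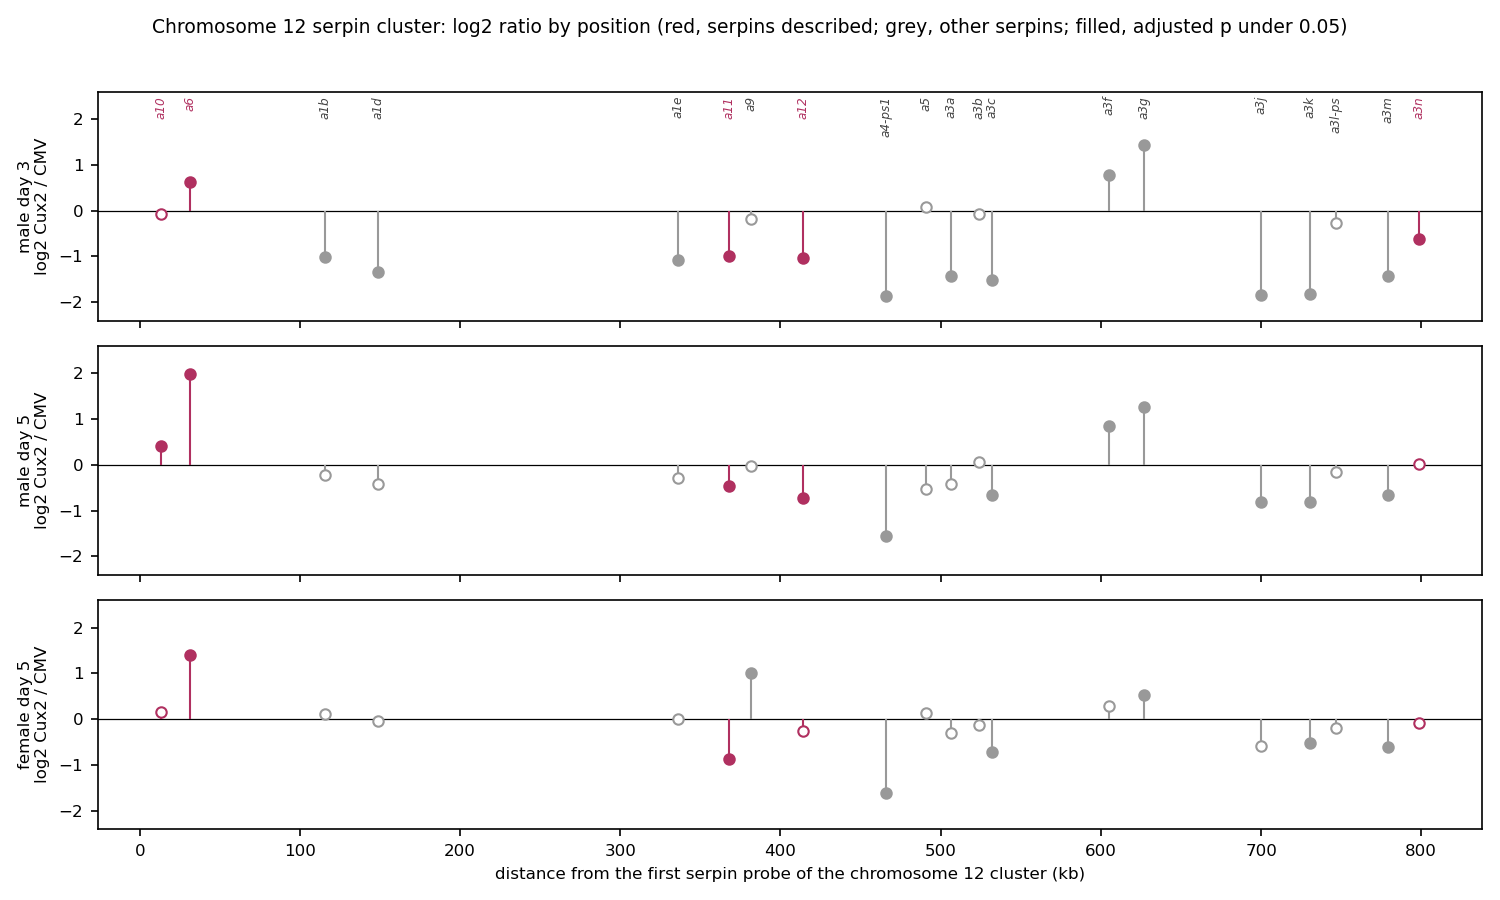
Log2 ratio of Adeno-Cux2 over Adeno-CMV for the clade A serpins of chromosome 12 against the distance of their probe from the first probe of the cluster (kb), in males at day 3, males at day 5 and females at day 5. Red stands for the serpins described, grey for the others, and filled points passed at an adjusted p under 0.05. Serpina6 was above 0 in all 3 panels, with Serpina11 below 0.

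Genes whose log2 ratios ran most like each serpin over the 8 arrays were listed as a description, out of 11515 genes called in at least 1 comparison. Serpina6 ran like Fmo1, a flavin monooxygenase (Pearson r = 0.992), Tnfrsf25 and Fgd2 (0.991 each). Serpina11 ran like Mup1, a major urinary protein (0.989), Amigo1 and H1f0 (0.987 each). Serpina3n ran like Cdc40 (0.992), Lcat, the plasma cholesterol acyltransferase (0.990), and Fam151b (0.989). Serpinb1a ran like 9130004C02Rik (0.986), Elf3, an epithelial transcription factor (0.982), and Chka, choline kinase (0.981). Serpina12 ran like the mitochondrial ribosomal protein genes Mrpl4 (0.989) and Mrpl34 (0.988), and Serpina10 like Acad9 (0.984), Zmynd15 (0.967) and Rims3 (0.963). Likeness was lower for Serpine2 (at most 0.963) and Serpina7 (at most 0.937, with Mroh3 at 0.930). With 8 arrays from 4 comparisons, which share their pools and dye order across genes, these are the highest values of a search and carry no test.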

How the data were processed

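Liver RNA was measured on 8 two-colour Agilent mouse arrays, 2 for each of 4 comparisons. Per the file headers, the deposited scanner files came from Agilent Feature Extraction 9.5.3.1 (untreated and male day 5 arrays, 1 slide) and 10.7.1.1 (female day 5 and male day 3 arrays, another slide). They give the median intensity of each spot and of its background, spot flags scored 0 or 1 per the file headers, and a deposited log10 ratio that the software had background-subtracted and dye-normalized. The deposited series table holds the same log10 ratio, with its sign turned on replicate 2.

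From the intensities, normexp background correction (offset 50) and loess were run in limma 3.58.1 (R 4.3.3), with control spots at weight 0 and outlier spots left out. Spots were averaged per probe. Of 41174 probes, 33330 were kept, namely those that the software marked well above background, in either channel, on both arrays of any comparison. The model had 4 comparison terms and a dye term, which is also the replicate number, with 3 residual degrees of freedom, and p-values were adjusted by Benjamini-Hochberg over all kept probes. A gene was read by its brightest kept probe. The number of arrays limits the precision. The procedure was tested on simulated data.

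Signals of single pools come from quantile scaling between arrays and are descriptive. Replicates of a group share only a number across comparisons. The members and the 18 gene lists were chosen with earlier results of these data known. The text names, beside the 8 serpins, the genes of each list with the largest called changes and a few whose role was of direct bearing, and those few were chosen after their values were seen. Some genes of the lists are not reported here.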

Additional observations from a re-analysis of the deposited data

Results flagged for a closer look

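The response to Adeno-Cux2 in males differed between day 5 and day 3 by the test of the difference itself (limma, 2 arrays each). The difference, day 5 minus day 3 on the log2 scale, was 1.35 for Serpina6, 0.62 for Serpina3n, -0.45 for Serpina7, 0.49 for Serpina10 and 0.72 for the second Serpina10 probe. Day and slide cannot be told apart in these values. With the software's log ratios none of the 8 genes was called in this difference. Of 33330 probes 579 were called with those ratios, against 4018 in the main fit. The calls of the 8 genes also did not hold without male day 3 replicate 2 or without male day 5 replicate 1. Those fits leave 1 array at 1 of the days, and calls over all probes became fewer there too.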

How the results depend on the processing

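Over 17 alternatives no call of the 8 genes reversed. Without background subtraction 1 gene was called in untreated mice (4 in the main analysis) and 3 in males at day 5 (6 in the main analysis). Of all 33330 probes 1943 were called in untreated mice (3260 in the main analysis) and 4770 in males at day 5 (5603 in the main analysis). With the software's log ratios 3 were called in males at day 5 and 0 in the difference between day 5 and day 3. That difference had 4 in the main analysis and 2 with a normexp offset of 10. Over all probes the software's ratios gave 3949 and 579 calls. The difference between days had 4018 calls over all probes in the main analysis and 2704 with that offset. With only the arrays of the comparison in the fit, 1 was called in the difference between females and males (Serpinb1a, -0.74, adjusted p = 0.0356 in limma) and 7 in that between days. Of all 33330 probes 335 and 6964 were called in these fits. Leaving out 1 array at a time changed the count of the 8 genes in every comparison and in the difference between days. The number of calls over all probes changed as well, and a comparison that loses 1 of its own arrays keeps only 1. Without the dye term, which is the replicate block, the counts were 5 in males at day 5, 4 in females, 5 in males at day 3, 4 in untreated mice, 0 between sexes and 4 between days. In the same order 4967, 5096, 13145, 2661, 63 and 3206 of all 33330 probes were called. The cause of these changes was not tested. Calls kept under all 17 were Serpina6 and Serpinb1a in females, Serpina6 in males at day 5, Serpina7 and Serpina11 in females and in males at day 3, Serpina3n and Serpina12 in males at day 3, and Serpinb1a in untreated mice. Signal close to background limits Serpine2 and Serpina12.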

Other observations

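Serpins outside the 8 also moved. On the log2 scale of Adeno-Cux2 over Adeno-CMV, the intracellular Serpinb6b was at 1.65 for day 3 males, 1.51 for day 5 males and 1.64 for females, and Serpinb6a at 0.90, 1.11 and 0.97, all called at an adjusted p under 0.05 in limma. Serpinh1, a collagen chaperone, was at 1.40, 1.02 and 1.14, all called.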
